A study of Mus musculus with 40 samples.

Results

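DNA methylation was compared between pro-B cells of mice lacking both Tet2 and Tet3 (DKO) and pro-B cells of mice lacking Tet2 alone (Tet2KO), so that the groups differ in Tet3 on a background without Tet2. The comparison used 100 bp tiles of the autosomes that had a methylation level in all 6 libraries. These were 201736 of the 971845 tiles in the table, and 705672 autosomal tiles had a level in at least 1 of the 6 libraries.

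TET enzymes oxidise 5-methylcytosine, and the oxidised bases are lost through replication or base excision, which leaves an unmethylated cytosine. Tet2 and Tet3 are the family members mainly expressed in the B lineage, where lineage enhancers lose methylation during differentiation. Pro-B cells are early B-cell progenitors of the bone marrow that rearrange the immunoglobulin heavy chain, and follicular B cells are mature recirculating cells of the spleen and lymph nodes.

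Methylation was measured by reduced representation bisulfite sequencing (RRBS), which reads CpG-rich restriction fragments after bisulfite conversion, and bisulfite does not separate 5-methylcytosine from 5-hydroxymethylcytosine. All mice were on the C57/bl strain, and the knockouts were described as inducible and driven by the MB1 promoter, whose activity begins in early B-cell stages, so other cells of the animals keep the genes. The pro-B DKO group (genotype label TET2/3_KO) held library 10 and library 11 from 7-week-old males and library 12 from a 6-week-old female. The pro-B Tet2KO group (TET2_KO) held library 4 from an 8-week-old female and libraries 5 and 6 from 6-week-old females. For reference, the study also held 3 pro-B libraries each of Tet3KO (TET3_KO) and WT (NORMAL), and 3 follicular libraries of each genotype, 24 RRBS libraries in all. Pro-B WT libraries 1 and 2 came from males of 8 and 6 weeks, and library 3 from a 6-week-old female. Pro-B Tet3KO libraries 7 and 9 came from males and library 8 from a female, all 7 weeks old. Each follicular group had the same sexes and ages as the pro-B group of its genotype. Whether each library is a mouse of its own is not stated, and p-values measure the spread between these libraries only.

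Neither the deletion of Tet2 and Tet3 nor the identity of the sorted cells was checked here, since the table holds methylation levels without gene names. Tiles on chromosome Y with a level numbered 132 to 380 in the 12 libraries labelled male and 0 to 75 in the 12 labelled female, without overlap. Libraries differed in breadth. Pro-B DKO libraries had levels at 556257, 447477 and 273728 tiles, and pro-B Tet2KO libraries at 532170, 631415 and 402283. DKO library 12 was the narrowest of the 6, and 29.3% of its tiles of intermediate methylation were at exactly 0% or 100%, against 7.26% to 17.6% in the other 5 libraries. Such values are frequent where few reads cover a tile, and the reads behind each level are unknown. Pro-B Tet3KO library 8 had levels at 24600 tiles only, so pro-B Tet3KO values rest mostly on libraries 7 and 9.

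The genome-wide level did not separate the groups. Over the 201736 tiles, the mean methylation level was 40.1%, 38.3% and 38.2% in the DKO libraries, against 38.5%, 39.0% and 37.9% in the Tet2KO libraries. The groups overlapped, and library 10 was the highest of the 6. The means were 38.8% ± 1.04 in DKO and 38.5% ± 0.593 in Tet2KO (SD, n = 3 each), a difference of 0.360 points (SE 0.693, exact permutation test, two-sided, p = 0.7, where 0.1 is the smallest p that 3 against 3 libraries allow).

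Tiles were then split by their level in pro-B WT, which took no part in the comparison. Among the 110045 tiles under 20% in WT, the level was 3.15% ± 0.555 in DKO and 2.70% ± 0.282 in Tet2KO (exact permutation p = 0.4). The 22347 tiles of 20 to 80% averaged 60.9% ± 4.51 in DKO and 59.97% ± 2.51 in Tet2KO (exact permutation p = 0.8). The 57950 tiles over 80% averaged 92.8% in both groups, with a difference of -0.04 points (exact permutation p = 1). All 4 p-values were 1 after Benjamini-Hochberg adjustment. In the intermediate class library 10 stood at 66.1% and the other DKO libraries at 58.5% and 58.1%, against 60.4%, 62.3% and 57.3% in Tet2KO. The difference in this class was -1.70 points without library 10 and 2.31 points without library 12, so its direction rested on single libraries.

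**Figure D1:**
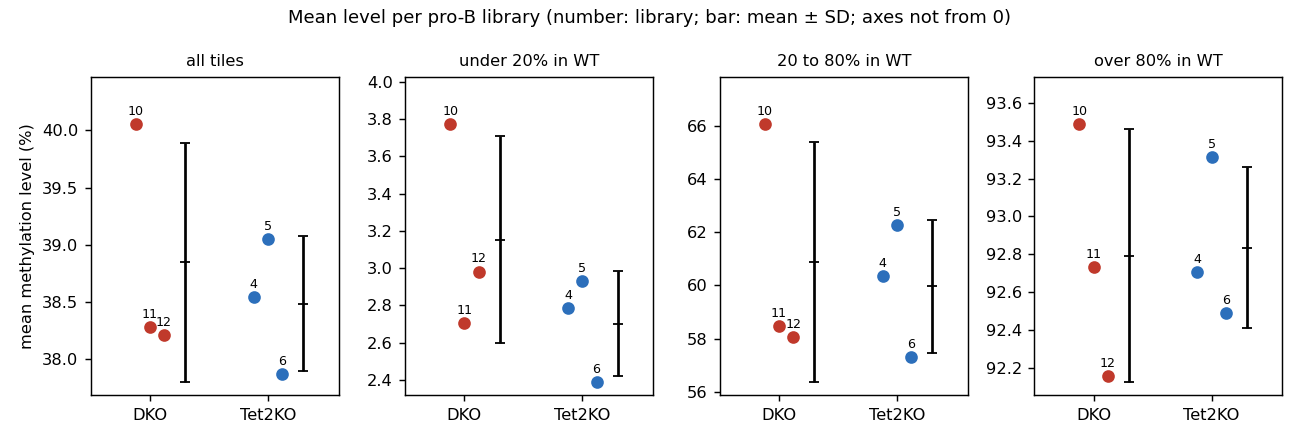
Mean methylation level in percent of each pro-B library, over all compared tiles and over the classes set by the pro-B WT level, with DKO left of Tet2KO, library numbers beside the points, and bars for mean ± SD; axes do not start at 0. The groups overlap in every panel, and DKO library 10 is the highest point of each.

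Single tiles did differ. Of the 201736 tiles, 44 were higher in DKO than in Tet2KO (0.0218%) and 10 were lower (0.00496%), 0.0268% in all, at a limma adjusted p under 0.05 with a difference of at least 20 percentage points. At an unadjusted p under 0.05, 12360 tiles differed (6.13%). In this fit all 24 libraries share 1 estimate of the spread per tile. The spread within groups was 9.70 points over pro-B libraries and 5.48 points over follicular libraries. Over the tiles as a whole, the shared estimate therefore lies below the pro-B spread, and the limma p-values and SE of this fit are likely too small. With the 12 pro-B libraries alone, 5 tiles were called higher (0.00248%) and 1 lower (0.000496%), of which 3 and 1 were among the 44 and the 10. The number of calls therefore depends on whether follicular libraries enter the estimate of spread, while follicular means take no part in the difference itself. The 2 higher tiles called only with pro-B libraries were on chromosome 4, at 62255001 with 25.0% in DKO and 0.521% in Tet2KO, and at 128271001 with 44.8% in DKO and 0% in Tet2KO.

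Counts moved when any 1 library was left out, with 34 to 43 of the 44 tiles still called higher. Without DKO library 10, 11 or 12, the tiles called higher numbered 116, 209 and 106, and those called lower 320, 129 and 73. Without Tet2KO library 4, 5 or 6, they numbered 100, 172 and 87 higher, and 22, 25 and 28 lower. Sex is nearly confounded with genotype here. With sex as a term in the fit, 32 tiles were called higher and 12 lower, of which 25 and 4 were among the 44 and the 10, including the strongest tile of each of the 10 higher regions described below.

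The 44 tiles called higher lay on 17 chromosomes, with 11 on chromosome 7, which holds 6.49% of all compared tiles. They formed 40 regions when tiles within 500 bp were joined, 3 of them with more than 1 called tile. Counting every tile of the table within 1 kb, itself included and compared or not, the median was 6, against 8 over all compared tiles. Their difference ranged between 21.4 and 100 points with a median of 50.4, against a median of 0 over all tiles. At all 44 the 3 DKO libraries lay above the 3 Tet2KO libraries, as they did at 6650 tiles of the table (3.3%). With DKO above Tet2KO at each of these tiles, no DKO level could be 0%. In Tet2KO, 18 tiles were at 0% in library 6, 9 in library 5 and 11 in library 4.

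The tiles called higher were mostly unmethylated in Tet2KO and WT. By the pro-B WT class, 30 were under 20%, 8 between 20% and 80% and 5 over 80%, and 1 tile had too few WT values. The share called higher was 0.0273% in the low class, 0.0358% in the intermediate class and 0.00863% in the high class. At the 30 tiles under 20% in Tet2KO, the median level was 71.1% in DKO, 2.56% in Tet2KO, with 10.1% in Tet3KO, and 1.91% in WT. Of these 30 tiles, 11 exceeded 80% in DKO, 20 of the 29 with a Tet3KO value were under 20% in Tet3KO, and 29 were under 20% in WT. A level between 0% and 100% can be a share of cells or of alleles, and these cannot be told apart.

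Another 14 tiles called higher were already partly methylated in Tet2KO. Of these, 7 lay at 20% to 60% in Tet2KO, with medians of 99.6% in DKO, 44.9% in Tet2KO, 64.7% in Tet3KO and 37.9% in WT. The other 7 lay above 60%, with medians of 97.8% in DKO, 70.1% in Tet2KO, 93.0% in Tet3KO and 81.9% in WT. In that last set WT was above Tet2KO at 6 of 7 tiles. Over all 44 tiles, DKO was at least 20 points above WT at 36, and the median of Tet3KO minus WT was 5.93 points.

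Of the 3 regions with more than 1 called tile, the one with the largest difference was on chromosome 7 at 139883701 to 139884000 (deposited coordinates, mouse build mm9). It held 2 called tiles and averaged 83.3%, 91.7% and 100% in the DKO libraries and 0% in each Tet2KO library. The groups lay far apart here, with DKO library 10 the lowest of its group, at 66.7% in the weaker tile. Levels were 0% in all 3 Tet3KO libraries, and 2.63%, 0% and 0% in WT. The mean difference was 91.7 points (limma adjusted p = 4.15e-08 for the stronger tile, and 0.000626 with pro-B libraries alone). This was 1 of the 3 tiles among the 44 whose call held with pro-B libraries alone; the others were its neighbour within the region and a tile on chromosome 4 described below.

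A second region on chromosome 7, at 118067001 to 118067300, held 3 adjoining called tiles. Levels were 89.0%, 94.3% and 86.7% in DKO, against 9.38%, 19.6% and 10.8% in Tet2KO. The groups did not overlap, and each DKO library stood more than 60 points above every Tet2KO library. Tet3KO had 6.35% and 20.1% in its 2 libraries with a value, and WT had 3.76%, 0% and 6.29%. The mean difference was 76.7 points (limma adjusted p = 9.25e-06 for the strongest tile). With pro-B libraries alone that tile had an adjusted p of 0.0502, just short of a call.

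The last of these regions was on chromosome 18 at 50206001 to 50206200. The DKO libraries had 79.9%, 91.7% and 69.8%, against 20%, 16.6% and 5% in Tet2KO. Tet3KO was intermediate and uneven, with 26.8% and 60% in 2 libraries, while WT had 0%, 0% and 11.3%. The mean difference was 66.6 points (limma adjusted p = 0.000137, and 0.282 with pro-B libraries alone).

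Among the single tiles with the smallest adjusted p, 1 on chromosome 8 at 36768801 to 36768900 went the whole way. It was at 100% in each DKO library and at 0% in each Tet2KO library. WT was at 0% in 2 libraries, and Tet3KO had no value (limma adjusted p = 0.000157, and 0.193 with pro-B libraries alone). The number of reads behind these extreme values is unknown. The follicular libraries had 81.8%, 74.4% and 84.0% in DKO, against 13.04%, 2.78% and 29.8% in Tet2KO at the same tile.

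At chromosome 11, 107304701 to 107304800, the DKO libraries had 86.1%, 100% and 100%, against 0%, 7.41% and 0% in Tet2KO. A second chromosome 11 tile, at 119925801 to 119925900, had 81.9%, 85.7% and 100% in DKO, against 0%, 15.2% and 8.06% in Tet2KO. Both tiles were without overlap, with limma adjusted p = 0.00247 for the first and 0.00158 for the second. With pro-B libraries alone, the limma adjusted p was 0.562 for the first and 0.214 for the second. Reference levels at them were uneven: the first had 45.9% and 0% in Tet3KO and 32.3% and 1.82% in WT.

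The chromosome 3 tile at 103657901 to 103658000 had 90%, 81.8% and 100% in DKO, against 6.80%, 14.4% and 7.45% in Tet2KO (limma adjusted p = 0.000917). Its Tet3KO libraries lay between, at 35.8% and 27.5%, and WT at 0%, 0% and 6.17%. On chromosome 13 at 55628801 to 55628900, the DKO libraries spread more widely, at 92.3%, 63.4% and 58.8%, against 1.07%, 3.35% and 2.56% in Tet2KO (limma adjusted p = 0.000359). Here Tet3KO stayed low, at 8.70% and 11.4%. With pro-B libraries alone, the limma adjusted p was 0.117 for the chromosome 3 tile and 0.129 for the chromosome 13 tile.

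The remaining named tiles, both on chromosome 4, showed smaller differences with little spread. At 122917201 to 122917300 the DKO libraries had 19.01%, 29.4% and 21.1%, against 0.376%, 2.48% and 0% in Tet2KO (difference 22.2 points, SE 1.85, limma adjusted p = 0.000137). The level in DKO was thus at most 29.4%, and WT was at 0% in all 3 libraries. With pro-B libraries alone, the limma adjusted p of this tile was 0.0829. At 148303101 to 148303200 the DKO libraries had 96.5%, 97.8% and 98.7%, against 68.7%, 71.3% and 69.2% in Tet2KO (difference 28.0 points, SE 2.52, limma adjusted p = 0.000157). This second tile passed with pro-B libraries alone (limma adjusted p = 0.00960). Its Tet3KO levels of 90.9% and 95.1% lay near DKO rather than near Tet2KO, with WT at 76.5%, 77.7% and 82.7%.

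**Figure D2:**
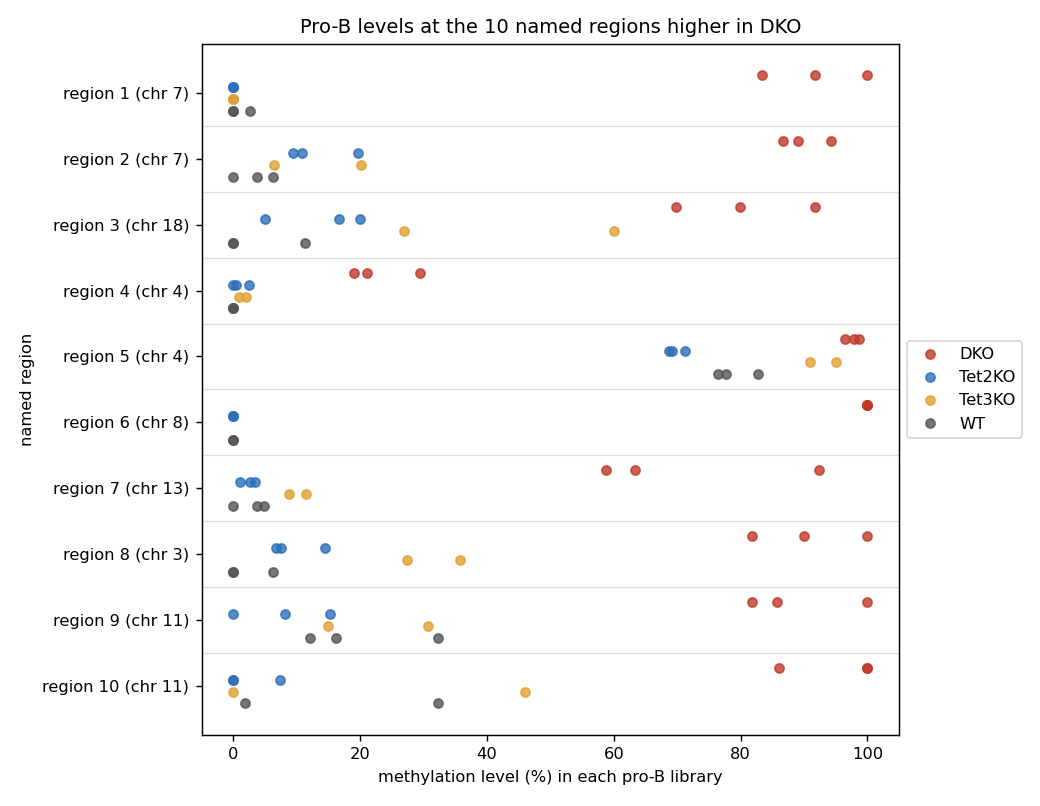
Methylation level in percent of every pro-B library with a value at the 10 named regions higher in DKO, from top to bottom DKO, Tet2KO, Tet3KO and WT in each row. DKO points lie right of all Tet2KO points in every row, and in rows 1, 2, 4 and 7 the Tet3KO points lie near Tet2KO and WT.

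Neighbouring tiles were compared at the 2 named tiles with the most neighbours. Within 2 kb of the chromosome 13 tile, 7 tiles had values in all 6 libraries, and the difference was at least 20 points at 2 of them, 100 bp apart. The tile 100 bp before it had 62.7% in DKO and 2.51% in Tet2KO, while tiles 900 to 1200 bp after it averaged at most 3.16% in DKO and 2.83% in Tet2KO. The last compared tile, 1300 bp after it, had 20.7% in DKO and 4.61% in Tet2KO. Around the chromosome 4 tile at 122917201, 9 tiles had all 6 values and 2 differed by at least 20 points. There the levels 200 to 500 bp before the tile were at most 4.19% in DKO and 4.14% in Tet2KO. On the other side, the tiles 100, 200 and 300 bp after it had 32.0%, 21.9% and 33.6% in DKO, against 7.81%, 2.29% and 28.9% in Tet2KO, and no tile farther on was compared. RRBS reads only short fragments near restriction sites. The tiles between and beyond had values in only some of the 6 libraries or in none, and were not compared.

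**Figure D3:**
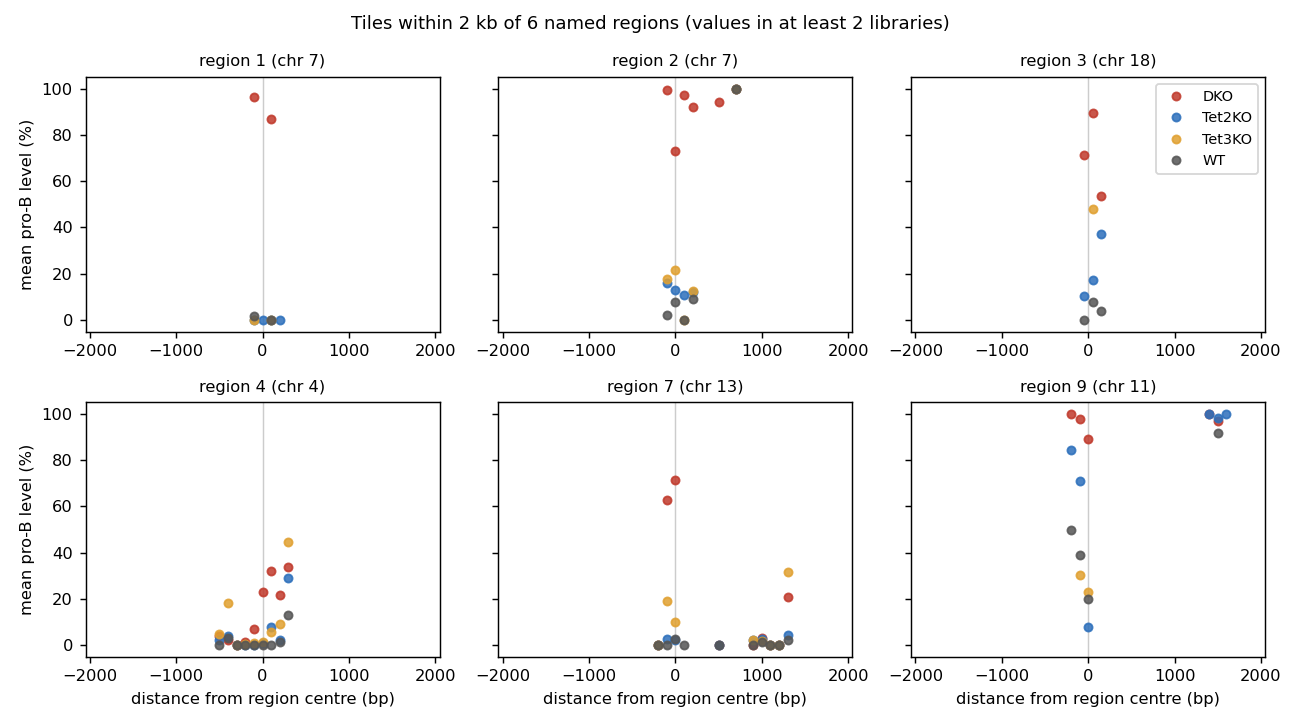
Mean pro-B methylation level in percent per group at tiles within 2000 bp of the centre of 6 named regions, for groups with values in at least 2 libraries. DKO stands apart over a few neighbouring tiles in each panel, and in the panels for chromosome 4 and chromosome 13 the tiles 200 bp or more before the centre are low in DKO and Tet2KO.

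Averaged over fixed 1 kb windows with at least 3 compared tiles, 8 of 26232 windows were higher in DKO (0.0305%) and 0 were lower (0%) by limma at the same thresholds, with 1730 at an unadjusted p under 0.05 (6.59%). Of the 8, 2 held the second chromosome 7 region and the chromosome 18 region. The windows on chromosomes 14, 5 and 2 each held 1 tile already called higher, and those on chromosomes 17, 11 and 8 held 0. A window on chromosome 14 from 34003001 to 34004000 averaged 78.4% ± 9.14 in DKO and 29.8% ± 7.19 in Tet2KO (SD, n = 3 each, difference 48.6 points, limma adjusted p = 2.11e-05). On chromosome 5, the window from 101304001 to 101305000 averaged 71.1% ± 14.4 in DKO and 12.7% ± 3.84 in Tet2KO (difference 58.4 points, limma adjusted p = 0.000664). With pro-B libraries alone 2 windows passed, those on chromosome 7 and chromosome 14. No window passed when at least 5 tiles were asked for, and the 8 windows held 3 or 4 compared tiles each.

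The follicular libraries gave a second look at the same tiles. Their levels were not used to set the pro-B difference, although their spread entered the calls, and the labels do not say whether the cells came from the same mice. Of the 43 tiles called higher in pro-B that had follicular values, 38 were higher in follicular DKO than in follicular Tet2KO without overlap, against 5.63% of all tiles. By limma, 23 of the 43 were called higher in follicular cells too, against 0.051% of all tiles, and 0 were called lower. The median follicular difference was 33.8 points at these tiles and 0 over all tiles.

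Averaged over the 44 tiles, the pro-B DKO libraries had 76.3%, 76.2% and 74.5%, against 22.2%, 25.2% and 21.001% in pro-B Tet2KO. Pro-B Tet3KO libraries 7 and 9 had 33.7% and 35.1% over the 42 and 39 tiles with a value. Pro-B WT had 21.6%, 21.6% and 22.1% over 42, 43 and 41 tiles. The follicular libraries kept the same order, with 63.0%, 61.4% and 62.2% in DKO, 25.9%, 25.9% and 27.3% in Tet2KO, 33.1%, 33.3% and 35.1% in Tet3KO, and 24.4%, 24.3% and 24.6% in WT. The pro-B DKO and Tet2KO values set the choice of tiles and are given as a description. The levels of the other groups took no part in the pro-B difference, although their spread entered the calls. In these means Tet3KO libraries, library 8 aside, lay above the WT libraries in both stages. The follicular means covered 39 to 44 of the tiles, so libraries of both stages were averaged over partly different tiles.

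**Figure D4:**
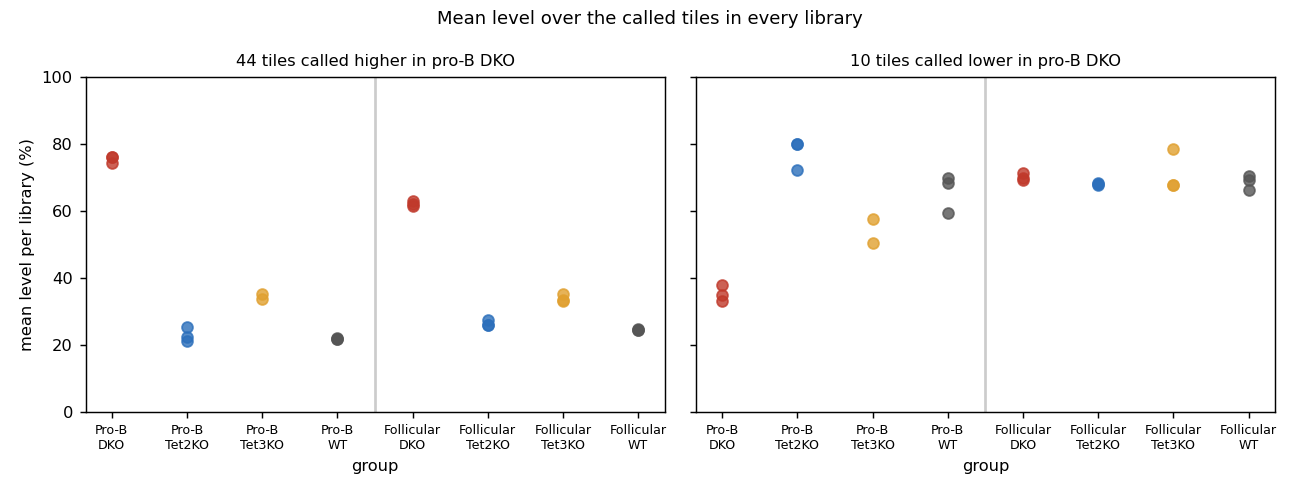
Mean methylation level in percent of each library over the 44 tiles called higher (left) and the 10 called lower (right) in pro-B DKO, with pro-B groups left of the line and follicular groups right of it, and a library drawn where it has at least 5 of the tiles. At the higher tiles follicular DKO (61.4% to 63.0%) also lies above follicular Tet2KO (25.9% to 27.3%), while at the lower tiles the follicular groups lie close together.

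The agreement was strongest where Tet2KO was unmethylated. All 29 tiles under 20% in pro-B Tet2KO that had follicular values were higher in follicular DKO without overlap, and 18 were called by limma. Their follicular medians were 48.6% in DKO, 2.91% in Tet2KO, 9.51% in Tet3KO and 2.69% in WT. Of the tiles above 60% in pro-B Tet2KO, 4 of 7 were without overlap in follicular cells, with a median difference of 6.76 points. Tiles above 60% have less room to rise, so the Tet2KO level and the size of the difference cannot be told apart here. At 5 of the 43 tiles with follicular values the follicular groups overlapped or the difference had the other sign. The widest such gap was at chromosome 2, 83580701 to 83580800, with pro-B levels of 84.7% in DKO and 40.8% in Tet2KO and follicular levels of 65.9% in DKO and 74.8% in Tet2KO.

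Among all large differences, chosen without any follicular value, higher tiles recurred in follicular cells more often than lower tiles. At 1613 tiles pro-B DKO lay above Tet2KO without overlap and by at least 20 points (0.8%), and at 884 it lay below (0.438%). With follicular values, 25.2% of 1545 such higher tiles were also higher in follicular DKO without overlap, against 5.63% of all tiles. Of 844 such lower tiles, 5.57% were also lower in follicular DKO, against 2.99% of all tiles. Among differences of at least 60 points, 57.8% of 45 higher tiles and 0 of 12 lower tiles did so. At the share of 2.99%, 0 of 12 would be likely for any 12 tiles. By sign alone, 91.1% of these higher and 66.7% of these lower tiles went the same way in follicular cells. Over all tiles, 49.7% had a follicular difference above 0 and 38.3% one below 0. As a description with limits set after values were seen, 60 of the 201736 tiles were over 50% in DKO and under 10% in Tet2KO. Another 17 were the other way round. Of those without overlap that had follicular values, 29 of 45 were at least 20 points higher in follicular DKO, and 0 of 11 were at least 20 points lower. The share of all tiles beyond 20 points in follicular cells is not given, so these counts have no baseline.

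The 10 tiles called lower stood singly, on 7 chromosomes, with a median of 3 tiles of the table within 1 kb, counted as above. Their differences ranged between -21.6 and -73.4 points. At all 10 the DKO libraries lay below the Tet2KO libraries, as they did at 4060 tiles of the table (2.01%). At chromosome 1, 37144501 to 37144600, the DKO libraries had 35.7%, 50% and 50%, against 87.3%, 97.5% and 100% in Tet2KO (limma adjusted p = 0.000870). WT was at 100% in 3 libraries, and follicular levels were high in DKO (90.5% ± 2.18) as in Tet2KO (87.3% ± 7.77, SD, n = 3 each).

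The chromosome 3 tile at 102183001 to 102183100 was the only lower tile whose call held with pro-B libraries alone (adjusted p = 0.0124). It had 74.0%, 75.7% and 76.3% in DKO, against 100%, 99.05% and 100% in Tet2KO. Its direction was the opposite in follicular cells, with 97.7% ± 2.28 in DKO and 81.5% ± 3.73 in Tet2KO (SD, n = 3 each). The widest lower difference was on chromosome 10 at 22204201 to 22204300, with 28.2%, 0% and 0% in DKO, against 66.7%, 81.7% and 100% in Tet2KO (difference -73.4 points, SE 11.3, limma adjusted p = 0.0376). Follicular DKO averaged 69.3% there and follicular Tet2KO 47.0%.

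At 2 of the tiles called lower, the Tet2KO libraries rather than DKO stood apart from WT. The tile on chromosome 1 at 128726801 to 128726900 was at 0% in each DKO library, against 31.9%, 32.1% and 15.8% in Tet2KO, and WT was at 0% in each library. The chromosome 3 tile at 106904301 to 106904400 was likewise at 0% in each DKO library, against 29.2%, 20.5% and 15% in Tet2KO. Both had a Tet2KO level of at most 10% in every follicular library. The other named lower tiles lay on chromosomes 2, 4, 7 and 8, with adjusted p between 0.00946 and 0.0469.

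In follicular cells, 0 of the 10 lower tiles were lower in DKO without overlap, against 2.99% of all tiles, and 1 was higher without overlap. By limma 0 were called lower, against 0.00204% of all tiles. At shares this low, 0 of 10 would be likely for any 10 tiles, so these counts cannot show a lack of agreement. The follicular difference was below 0 at 5 of the 10, against 38.3% of all tiles. Their median follicular difference was 0.40 points. Over the 10 tiles the pro-B DKO libraries averaged 38.0%, 35.0% and 33.1%, against 72.2%, 79.9% and 79.9% in pro-B Tet2KO, and the follicular libraries averaged 69.4% to 71.4% in DKO and 67.9% to 68.4% in Tet2KO.

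**Figure D5:**
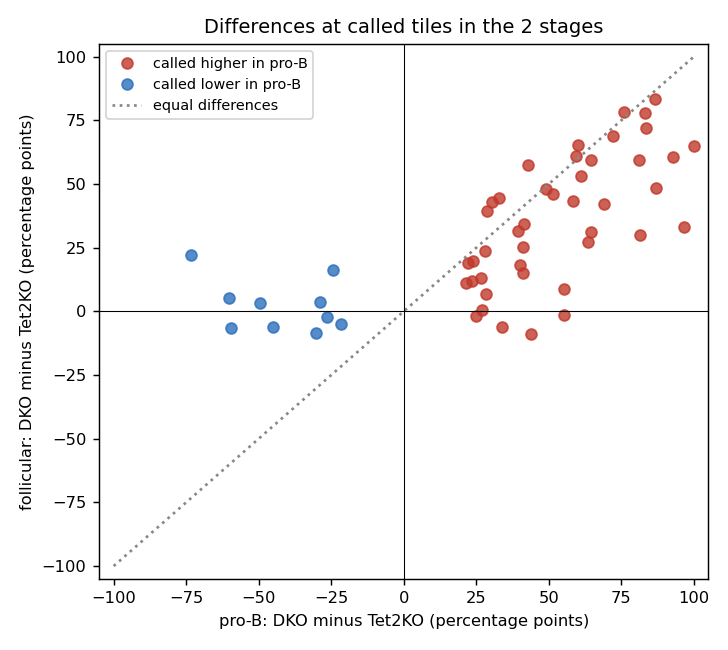
Difference in methylation level, DKO minus Tet2KO in percentage points, at the called tiles in pro-B cells (horizontal) and follicular cells (vertical), with tiles called higher in pro-B in red, tiles called lower in blue, and a dotted line at equal differences. Most red points lie above 0 on the vertical axis, with a median of 33.8 points, and the blue points scatter around 0.

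Whether missing Tet3 had another effect without Tet2 than with it was tested as the difference between DKO minus Tet2KO and Tet3KO minus WT in pro-B cells. Of 162065 tiles with enough values, limma called 92 with a positive difference (0.0568%) and 23 with a negative one (0.0142%), and 11304 had an unadjusted p under 0.05 (6.97%). Of the tiles called higher in DKO, 38 were tested here and 9 were called positive, against 0.0568% of all tiles. Of the tiles called lower, 4 were tested and 0 were called negative. These tiles were chosen by the same DKO minus Tet2KO difference, so the counts are a description. At 17 of the 92 tiles DKO was at least 20 points above Tet2KO. At 71 of the 92, Tet3KO was at least 20 points below WT, and at 54 of these DKO and Tet2KO were within 10 points of each other. Most of the calls were thus tiles with a low pro-B Tet3KO level, and pro-B Tet3KO had 2 libraries at nearly all tiles. The median of Tet3KO minus WT over the 71 tiles was -34.8 points in pro-B cells and 0.24 points in follicular cells. With pro-B libraries alone, 20 tiles were called in place of 115. Without Tet3KO library 7 or 9, which leaves 1 library at most tiles, 2204 and 1178 were called.

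The first chromosome 7 region also had the clearest call here. Its tile at 139883701 averaged 96.6% ± 5.97 in DKO with 0% in Tet2KO. Tet3KO had 0% there and WT 1.75% ± 3.04 in WT (SD, n = 3 each). The effects differed by 98.3 points (SE 7.30, limma adjusted p = 2.06e-05). In contrast, at chromosome 12, 107233401 to 107233500, DKO had 98.1% ± 2.10 and Tet2KO 92.4% ± 4.69, while Tet3KO had 20.6% ± 10.3 and WT 100% (difference 85.2 points, limma adjusted p = 0.000222). Follicular Tet3KO had 86.5% ± 4.46 at that tile and follicular WT 81.7% ± 10.9.

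The DKO minus Tet2KO difference was compared between stages at 196002 tiles. The value tested was DKO minus Tet2KO in pro-B cells, less the same in follicular cells. Limma called 2 tiles with a positive value (0.00102%) and 11 with a negative value (0.00561%), with 9272 at an unadjusted p under 0.05 (4.73%). At 5 of the 11, pro-B DKO and Tet2KO both exceeded 80% while follicular Tet2KO was under 60%. The tile of these with the smallest adjusted p was at chromosome 15, 61813201 to 61813300. Pro-B levels there were 95.2% ± 8.25 in DKO and 91.2% ± 9.01 in Tet2KO, and follicular levels were 96.6% ± 2.28 in DKO and 7.16% ± 6.22 in Tet2KO (SD, n = 3 each, difference between stages -85.4 points, limma adjusted p = 0.000934). Pro-B WT was at 88.9% in 1 library and follicular WT at 1.77% ± 1.56.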

How the data were processed

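RRBS was read in 24 mouse libraries, and the 6 pro-B DKO and Tet2KO libraries were compared. The authors deposited a table of methylation fractions (0 to 1) per 100 bp tile, shown here in percent. Per the submitters' processing notes, Trim Galore and methylKit were used, with builds mm9 and hg19. The aligner, the minimum coverage and the conversion rate are not given in the sources used here. Read numbers per tile are not in the table, so no coverage filter, count model or interval was possible, and shallow tiles weigh as much as deep ones.

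Compared tiles were autosomal with a value in all 6 libraries. Levels in percent were fitted with limma 3.58.1 in R 4.3.3 (data.table, version 1.17.8), 8 group means over all 24 libraries, trended prior spread, two-sided. Calls needed a Benjamini-Hochberg adjusted p under 0.05 over all tiles tested and a difference of at least 20 points. Residual degrees of freedom were at most 16 per tile, and 4 with the 6 libraries alone. The scripts were tested on simulated data. Mean levels were compared by exact permutation. Named regions were joined from called tiles within 500 bp: first those with at least 2 tiles by difference, then single tiles by adjusted p, 10 per direction, and 5 tiles per interaction. No mm9 annotation was used, so tiles carry no gene names. Members, lists and rules were chosen with earlier results of these data known. RNA samples were not analysed here.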

Additional observations from a re-analysis of the deposited data

Results flagged for a closer look

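The difference between the Tet3 effects without and with Tet2 was past the thresholds at 115 tiles. The 5 with the smallest adjusted p by limma had differences of 98.3 points on chromosome 7 at 139883701, 86.1 points on chromosome 7 at 106375301, 34.2 points on chromosome 5 at 84114901, 85.2 points on chromosome 12 at 107233401 and 25.0 points on chromosome 4 at 106991601. At the tile on chromosome 7 at 106375301, DKO had 100% and Tet2KO 77.3% ± 8.31, while Tet3KO had 34.0% ± 5.72 and WT 97.4% ± 4.51. At the tiles on chromosome 5 and chromosome 4, Tet3KO stood low, at 67.2% ± 5.99 and 73.5% ± 2.96, while DKO, Tet2KO and WT exceeded 98%. In follicular cells Tet3KO had 97.6% ± 2.16 and 95.3% ± 2.85 at these 2 tiles. Pro-B Tet3KO library 8 had a value at 4 of the 115 tiles.

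The difference between stages was past the thresholds at 13 tiles. The 5 with the smallest adjusted p by limma differed by 63.3 points on chromosome 7 at 139883701, -85.4 points on chromosome 15 at 61813201, -30.3 points on chromosome 7 at 19889901, -40.5 points on chromosome 3 at 102183001 and 28.7 points on chromosome 5 at 116881701. At the chromosome 7 tile at 19889901, pro-B levels were 0% in DKO and 3.48% ± 4.76 in Tet2KO, and follicular levels were 26.8% ± 5.92 in DKO and 0% in Tet2KO. On chromosome 5 at 116881701, pro-B levels were 99.1% ± 1.56 in DKO and 93.9% ± 5.46 in Tet2KO, and follicular levels were 76.5% ± 1.86 in DKO and 100% in Tet2KO.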

How the results depend on the processing

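The main counts were 44 tiles higher and 10 lower. Logit values gave 73 higher, and kept 9 of the 10 named higher tiles but 3 of the 10 lower tiles. The 6 libraries alone gave 4 higher and 1 lower, and pro-B libraries alone 5 and 1. Sex and age strata gave 88 and 83, and values in 2 of 3 libraries (380021 tiles) gave 291 and 253. Only 6-week females, a lone DKO library assumed to vary like the others, gave 1460 and 3935. Of lower tiles, 18 passed at 10 points, 6 at 30 points and 6 with values in 23 libraries. Leaving out 1 library gave 87 to 209 higher and 22 to 320 lower. For the Tet3 effects (115), pro-B libraries gave 20 and leaving out 1 library 112 to 2204. For the stages (13), logit values and the 4 groups gave 7 each, centring 1, 10 points 23, and leaving out 1 library 21 to 109. Higher windows (8) numbered 0 with 6 libraries, 2 with pro-B libraries, 0 at 5 tiles and 4 to 21 without 1 library, and lower windows (0) 0 to 6. Mean differences reversed in 6-week females to -0.25 points over all tiles and -1.72 in the intermediate class, and to 1.86 in the high class by the median. Without 1 library they spanned -0.24 to 0.68, -1.70 to 2.31 and -0.39 to 0.28 points. No named tile changed sign. The causes were not tested. No paired analysis was possible because no library number is shared between groups, and sex and age leave libraries 10 and 11, and 5 and 6, interchangeable across stages. Unknown read depth limits every level.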
